A study of Saccharomyces cerevisiae with 12 samples.

Results

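The mitochondrial respiratory chain and ATP synthase of the budding yeast *S. cerevisiae* were followed through 36 nuclear genes, out of 5769 genes with values on the arrays. The genes were chosen by ORF name and not by any measured value, though with earlier results of these data known. All 36 had a value on every array. They are nuclear genes of complex II (4 genes), the mitochondrial NADH dehydrogenases (2), the cytochrome bc1 complex (9) and cytochrome c (1). The others are of cytochrome c oxidase (8) and of ATP synthase (12, with 5 in the catalytic F1 part and 7 in the stalk and membrane part). Second isoforms and some small ATP synthase subunits are outside the set and are followed separately. The values are log2 expression values, 1 per gene and array, from 12 one-color microarrays.

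The respiratory chain passes electrons from NADH and succinate through ubiquinone, the bc1 complex and cytochrome c to oxygen, and ATP synthase uses the proton gradient that results. Baker's yeast has no proton-pumping NADH dehydrogenase, and it uses single-subunit enzymes on either side of the inner membrane instead. On glucose this yeast ferments, many genes of the chain are held low, and the Hap2/3/4/5 complex activates many of them when glucose is scarce. Tup1, with Ssn6, is a general corepressor that takes part in glucose repression and in the repression of hypoxic genes. TOR kinases, which rapamycin inhibits, couple growth to nutrients.

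The 4 groups were *tup1Δ* with rapamycin (2 arrays), *tup1Δ* with DMSO (2), WT with rapamycin (4) and WT with DMSO (4). WT was the laboratory strain BY4741, of mating type *MATa* with the alleles *his3Δ1*, *leu2Δ0*, *met15Δ0* and *ura3Δ0*, and *tup1Δ* was 1 strain of the yeast deletion collection, which shares the 4 auxotrophic alleles of BY4741. All cultures grew at 30°C in YPD, a rich glucose medium, and at mid-log phase they received 100 nM rapamycin or its solvent, 0.1% DMSO, for 30 min. Each of the 4 WT cultures was divided between the treatments, and *tup1Δ* came from 2 cultures.

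The arrays had medians between 11.48 and 11.52 and values between 7.85 and 15.52. *TUP1* read 7.95 to 8.23 in *tup1Δ*, against 13.66 to 14.04 in WT, and *LEU2*, *URA3* and *MET17* (the gene of the *met15Δ0* allele), which are absent from every group, read 7.85 to 8.06 on all arrays. These readings show where a missing transcript lies on this scale. The WT arrays fell into 2 pairs. The SD of the differences over all genes between replicates 3 and 4 was 0.0643 in rapamycin and 0.0647 in DMSO, and between replicates 1 and 2 it was 0.214 in rapamycin and 0.110 in DMSO. Between arrays of different pairs, it was 0.243 to 0.268 in rapamycin and 0.258 to 0.287 in DMSO. Values of single arrays are given in the order of the replicate numbers. Values are normalized within the whole array, so each change is relative to the other genes, and a change of all genes together would not be seen. The arrays do not separate the strands. Cytochrome c, the external NADH dehydrogenase, subunit V of cytochrome c oxidase and the flavoprotein, cytochrome b and anchor subunits of complex II each have a paralog that could share probes, so the separate values of such pairs are uncertain.

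In WT, nearly the whole set rose in rapamycin. Of the 36 genes, 33 rose, 1 fell and 2 did not pass the test (Benjamini-Hochberg adjusted p under 0.05 over all 5769 genes, limma). Errors after ± are standard errors (SE) from this fit. Over all genes, 37.8% rose and 28.4% fell. The median log2 fold change of the 36 genes was 0.48, against 0.06 over all genes. The rises were mostly under 2-fold. A log2 fold change of at least 1 together with the adjusted p was reached by 7 of the 36 genes, while 5.41% of all genes reached it upward. The values of the 4 rapamycin arrays lay above those of the 4 DMSO arrays for 26 of the 36 genes, and for 33.4% of all genes. Within the divided cultures, rapamycin was above DMSO in all 4 cultures for 35 of the 36 genes, *NDE1* being the exception. This count was not made over all genes, of which 3282 of 5769 had a WT log2 fold change above 0. The median was 1.12 for complex II, 0.73 for the bc1 complex and 0.45 for cytochrome c oxidase. It was 0.19 for the F1 part and 0.30 for the stalk and membrane part of ATP synthase. The map of the 36 genes over the 12 arrays shows these levels.

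**Figure D1:**
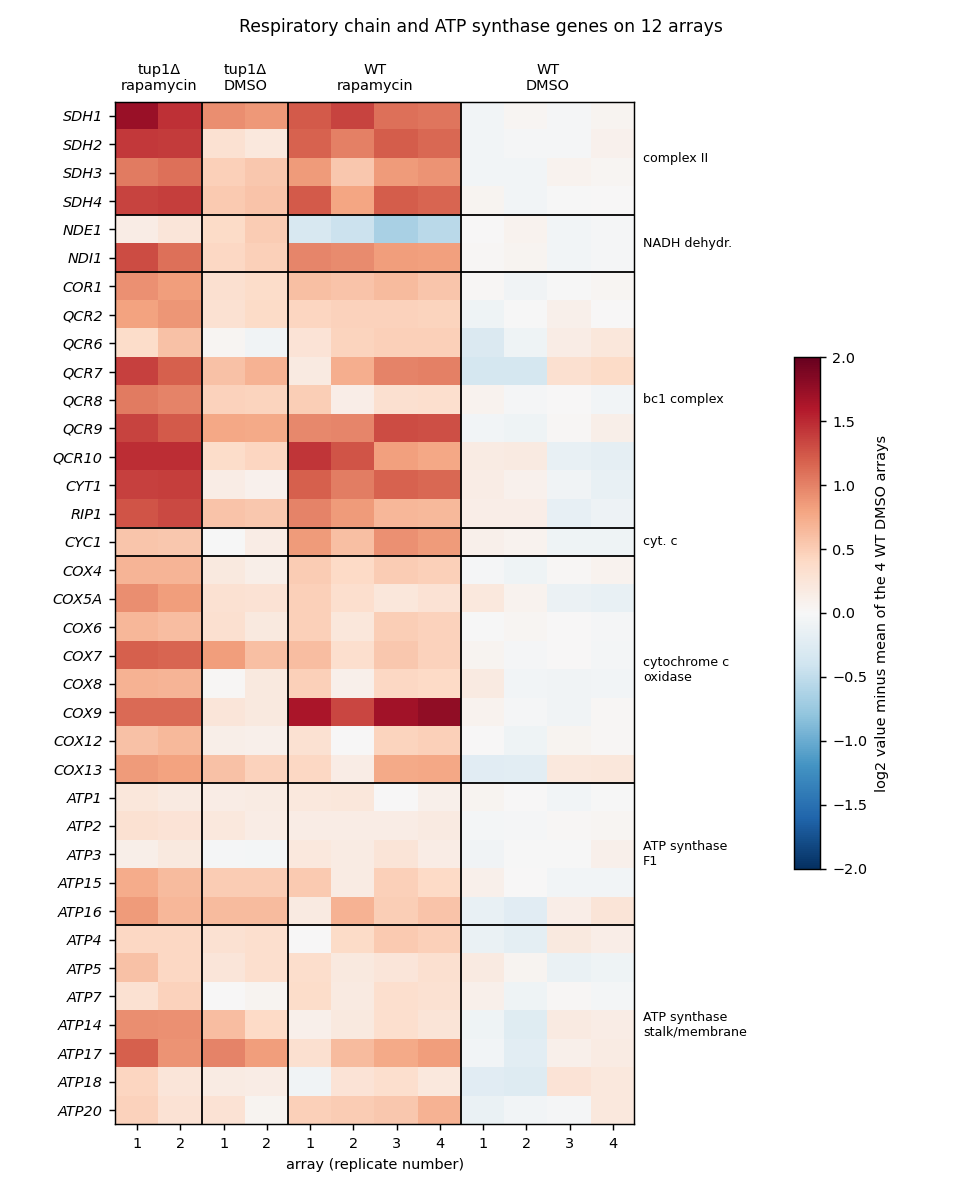
Each cell is the log2 value of 1 of the 36 genes (rows, by complex) on 1 of the 12 arrays (columns, by group and replicate number), minus the mean of the 4 WT DMSO arrays. Rapamycin columns are darker red in most rows, the ATP synthase rows are paler, and *NDE1* is blue in WT with rapamycin.

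Complex II, or succinate dehydrogenase, links the citric acid cycle to the chain, and all 4 of its genes rose in WT. *SDH1* (YKL148C), its flavoprotein, read 13.80 and 13.55 in *tup1Δ* with rapamycin, against 13.02 and 12.95 in *tup1Δ* with DMSO. The WT values were 13.30, 13.44, 13.18 and 13.15 with rapamycin, against 12.03, 12.12, 12.05 and 12.13 with DMSO. The treatments did not overlap in either strain, and the 2 *tup1Δ* DMSO arrays already stood far above the 4 WT DMSO arrays. The log2 fold change was 0.69 ± 0.10 (SE, limma adjusted p = 0.000216) in *tup1Δ* and 1.19 ± 0.074 (SE, limma adjusted p = 8.77e-08) in WT. *SDH2* (YLL041C), the iron-sulfur subunit, read 13.35 and 13.34 in *tup1Δ* with rapamycin, against 12.23 and 12.15 in *tup1Δ* with DMSO. WT gave 13.11, 12.94, 13.14 and 13.08 with rapamycin, against 11.89, 11.91, 11.91 and 12.03 with DMSO. Its log2 fold change was 1.15 ± 0.076 (SE, limma adjusted p = 3.16e-07) in *tup1Δ* and 1.13 ± 0.054 (SE, limma adjusted p = 8.85e-09) in WT, a difference of 0.02 with a standard error of 0.093. *SDH4* (YDR178W), a membrane anchor, read 12.96 and 13.00 in *tup1Δ* with rapamycin, against 12.13 and 12.18 in *tup1Δ* with DMSO. In WT the values were 12.84, 12.40, 12.83 and 12.78 with rapamycin, against 11.67, 11.56, 11.60 and 11.62 with DMSO. WT replicate 2 with rapamycin was the lowest of its group but still above every DMSO array, and the log2 fold change was 0.82 ± 0.12 (SE, limma adjusted p = 0.000175) in *tup1Δ* and 1.10 ± 0.086 (SE, limma adjusted p = 5.87e-07) in WT. *SDH3* (YKL141W), the other membrane subunit, rose by 0.57 in *tup1Δ* and 0.79 in WT on the log2 scale.

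The 2 single-subunit NADH dehydrogenases of the set moved in opposite directions. *NDI1* (YML120C), which oxidizes NADH of the mitochondrial matrix, read 12.94 and 12.74 in *tup1Δ* with rapamycin, against 12.04 and 12.12 in *tup1Δ* with DMSO. In WT its values were 12.60, 12.58, 12.47 and 12.46 with rapamycin, against 11.65, 11.69, 11.58 and 11.62 with DMSO, and the log2 fold change there was 0.89 ± 0.057 (SE, limma adjusted p = 1.13e-07). *NDE1* (YMR145C), which oxidizes cytosolic NADH on the outer face of the inner membrane, was the only gene of the 36 that fell. It read 13.38 and 13.47 in *tup1Δ* with rapamycin, against 13.62 and 13.74 in *tup1Δ* with DMSO. The WT arrays gave 12.91, 12.81, 12.59 and 12.69 with rapamycin, against 13.23, 13.30, 13.17 and 13.21 with DMSO. Rapamycin lay below DMSO without overlap in both strains. *NDE1* fell by 0.25 in *tup1Δ* (SE 0.097, limma adjusted p = 0.049) and by 0.48 in WT (SE 0.069, limma adjusted p = 8.19e-05) on the log2 scale. The fall in *tup1Δ* stood just inside the threshold and lost it when any of 10 arrays was left out, namely *tup1Δ* replicates 1 and 2 of either treatment, WT DMSO replicates 1 to 4, and WT rapamycin replicates 2 and 4.

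The bc1 complex, which passes electrons from ubiquinol to cytochrome c, rose in WT in 9 of its 9 genes. *CYT1* (YOR065W), the catalytic cytochrome c1 subunit, read 12.60 and 12.61 in *tup1Δ* with rapamycin, against 11.38 and 11.32 in *tup1Δ* with DMSO. WT arrays read 12.43, 12.26, 12.41 and 12.38 with rapamycin, against 11.37, 11.31, 11.16 and 11.08 with DMSO. The treatments did not overlap in either strain, and the log2 fold change was 1.26 ± 0.095 (SE, limma adjusted p = 9.86e-07) in *tup1Δ* and 1.14 ± 0.067 (SE, limma adjusted p = 5.52e-08) in WT. *QCR9* (YGR183C), a small subunit next to the Rieske protein, read 12.16 and 12.03 in *tup1Δ* with rapamycin, against 11.58 and 11.56 in *tup1Δ* with DMSO. In WT it read 11.77, 11.78, 12.12 and 12.10 with rapamycin, against 10.75, 10.73, 10.83 and 10.93 with DMSO, a log2 fold change of 1.13 ± 0.089 (SE, limma adjusted p = 6.25e-07). *QCR10* (YHR001W-A), a small accessory subunit, read 10.70 and 10.70 in *tup1Δ* with rapamycin, against 9.59 and 9.66 in *tup1Δ* with DMSO. The WT values were 10.65, 10.49, 10.05 and 10.01 with rapamycin, against 9.39, 9.40, 9.07 and 9.04 with DMSO. The log2 fold change was 1.07 ± 0.20 (SE, limma adjusted p = 0.00107) in *tup1Δ* and 1.07 ± 0.14 (SE, limma adjusted p = 5.08e-05) in WT. WT replicates 1 and 2 stood above replicates 3 and 4 for *QCR10* in both treatments, and the rises within the 4 divided cultures were 1.26, 1.09, 0.97 and 0.97.

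The other 6 bc1 genes rose by less than 1 on the log2 scale in WT. *RIP1* (YEL024W), the Rieske iron-sulfur protein, rose by 0.74 in *tup1Δ* and 0.79 in WT. The core proteins *COR1* (YBL045C) and *QCR2* (YPR191W) rose by 0.53 and 0.50 in *tup1Δ* and by 0.59 and 0.45 in WT. *QCR6* (YFR033C), the acidic subunit near cytochrome c1, rose by 0.49 in *tup1Δ* and 0.42 in WT. *QCR8* (YJL166W), a small subunit bound to cytochrome b, read 10.80 and 10.76 in *tup1Δ* with rapamycin, against 10.22 and 10.21 in *tup1Δ* with DMSO. WT gave 10.25, 9.89, 10.08 and 10.10 with rapamycin, against 9.83, 9.74, 9.77 and 9.70 with DMSO, and the gene rose by 0.57 in *tup1Δ* and 0.32 in WT. *QCR7* (YDR529C), another subunit close to cytochrome b, had the largest standard error of the 36 genes. It read 12.23 and 12.05 in *tup1Δ* with rapamycin, against 11.45 and 11.56 in *tup1Δ* with DMSO. In WT the values were 11.05, 11.59, 11.85 and 11.87 with rapamycin, against 10.52, 10.51, 11.18 and 11.25 with DMSO. The WT DMSO replicates 3 and 4 stood 0.70 above replicates 1 and 2, the WT treatments overlapped over all arrays, and the differences within the 4 cultures were 0.53, 1.08, 0.67 and 0.62. The log2 fold change of *QCR7* was 0.64 ± 0.30 (SE, limma adjusted p = 0.0991) in *tup1Δ* and 0.73 ± 0.21 (SE, limma adjusted p = 0.0104) in WT.

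*CYC1* (YJR048W), the main cytochrome c of aerobic cells, carries electrons from the bc1 complex to the oxidase. It read 10.75 and 10.74 in *tup1Δ* with rapamycin, against 10.19 and 10.35 in *tup1Δ* with DMSO. In WT its values were 11.05, 10.80, 11.12 and 11.05 with rapamycin, against 10.29, 10.27, 10.11 and 10.11 with DMSO. The treatments did not overlap in either strain, with log2 fold changes of 0.48 ± 0.11 (SE, limma adjusted p = 0.00295) in *tup1Δ* and 0.81 ± 0.076 (SE, limma adjusted p = 2.58e-06) in WT.

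Cytochrome c oxidase reduces oxygen, and the 8 nuclear genes measured here encode subunits around the catalytic core, which is encoded in the mitochondrion. All 8 rose in WT. *COX9* (YDL067C), subunit VIIa, had the largest rise of the 36 genes in WT. It read 12.07 and 12.07 in *tup1Δ* with rapamycin, against 11.17 and 11.14 in *tup1Δ* with DMSO. The WT arrays gave 12.57, 12.28, 12.62 and 12.70 with rapamycin, against 11.00, 10.92, 10.87 and 10.96 with DMSO. The *tup1Δ* arrays lay below the WT arrays in rapamycin and above them in DMSO. The log2 fold change was 0.91 ± 0.11 (SE, limma adjusted p = 4.49e-05) in *tup1Δ* and 1.61 ± 0.080 (SE, limma adjusted p = 1.31e-08) in WT, which for WT is a 3.04-fold rise.

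The other 7 oxidase genes rose by 0.31 to 0.52 on the log2 scale in WT. *COX4* (YGL187C), a zinc-binding subunit, rose by 0.53 in *tup1Δ* and 0.48 in WT. *COX5A* (YNL052W), the aerobic form of subunit V, rose by 0.59 in *tup1Δ* and 0.33 in WT. *COX6* (YHR051W) and *COX7* (YMR256C), which are needed to assemble the enzyme, rose by 0.38 and 0.47 in *tup1Δ* and by 0.42 and 0.49 in WT. *COX8* (YLR395C), *COX12* (YLR038C) and *COX13* (YGL191W) encode peripheral subunits, and their WT treatments overlapped. *COX8* and *COX12* rose by 0.57 and 0.50 in *tup1Δ* and by 0.34 and 0.31 in WT. *COX13* had a log2 fold change of 0.30 ± 0.22 (SE, limma adjusted p = 0.268) in *tup1Δ*, which did not pass, and rose by 0.52 in WT. Its WT replicates 3 and 4 stood 0.49 above replicates 1 and 2 in rapamycin and 0.44 above them in DMSO.

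The ATP synthase genes had small responses. In WT 10 of the 12 rose, with a median log2 fold change of 0.29, against 0.66 over the 24 genes of the chain, of which 23 rose. *ATP1* (YBL099W) and *ATP2* (YJR121W), the alpha and beta subunits that form the catalytic ring, had log2 fold changes of 0.04 and 0.12 in *tup1Δ*, which did not pass, and rose by 0.14 and 0.15 in WT. The WT call of *ATP1* was lost in 14 of 21 other settings (limma adjusted p up to 0.155). They read between 13.95 and 14.72 on the 12 arrays, not far below the highest value of any gene (15.52), and whether the signal was saturated there was not tested. *ATP3* (YBR039W), the gamma subunit of the central stalk, rose by 0.17 in *tup1Δ*, a call lost in 14 of 21 other settings, and 0.19 in WT. *ATP15* (YPL271W), the epsilon subunit, had a log2 fold change of 0.18 in *tup1Δ*, which did not pass, and rose by 0.39 in WT. *ATP16* (YDL004W), the delta subunit of the central stalk, read 12.80 and 12.61 in *tup1Δ* with rapamycin, against 12.58 and 12.58 in *tup1Δ* with DMSO. WT arrays read 12.13, 12.64, 12.43 and 12.51 with rapamycin, against 11.80, 11.71, 12.08 and 12.19 with DMSO. The WT treatments overlapped for *ATP16*, its WT DMSO replicates 3 and 4 stood 0.38 above replicates 1 and 2, and the log2 fold change in WT was 0.48 ± 0.13 (SE, limma adjusted p = 0.00517).

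Among the stalk and membrane subunits, *ATP17* (YDR377W), subunit f, had the largest response in WT. It read 11.42 and 11.12 in *tup1Δ* with rapamycin, against 11.22 and 11.07 in *tup1Δ* with DMSO, where the treatments overlapped and the log2 fold change of 0.13 did not pass. In WT it read 10.55, 10.86, 10.98 and 11.07 with rapamycin, against 10.17, 10.02, 10.33 and 10.39 with DMSO, a log2 fold change of 0.64 ± 0.12 (SE, limma adjusted p = 0.000696). *ATP4* (YPL078C), subunit b of the peripheral stalk, *ATP5* (YDR298C), the oligomycin-sensitivity protein at its top, and *ATP20* (YPR020W), subunit g, which helps the enzyme form dimers, had log2 fold changes of 0.09, 0.22 and 0.20 in *tup1Δ*, of which none passed. They rose in WT by 0.35, 0.28 and 0.56. *ATP7* (YKL016C), subunit d of the peripheral stalk, rose by 0.35 in *tup1Δ* and 0.30 in WT. *ATP14* (YLR295C), subunit h, read 10.91 and 10.90 in *tup1Δ* with rapamycin, against 10.60 and 10.39 in *tup1Δ* with DMSO. The WT values were 10.08, 10.18, 10.31 and 10.25 with rapamycin, against 9.89, 9.73, 10.17 and 10.13 with DMSO. It rose by 0.41 in *tup1Δ*, while its WT log2 fold change of 0.22 did not pass (limma adjusted p = 0.0607). With the replicate number as a block, *ATP14* passed in WT too (limma adjusted p = 0.0161). *ATP18* (YML081C-A), subunit i/j, passed in neither strain, at 0.18 in *tup1Δ* and 0.19 in WT.

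**Figure D2:**
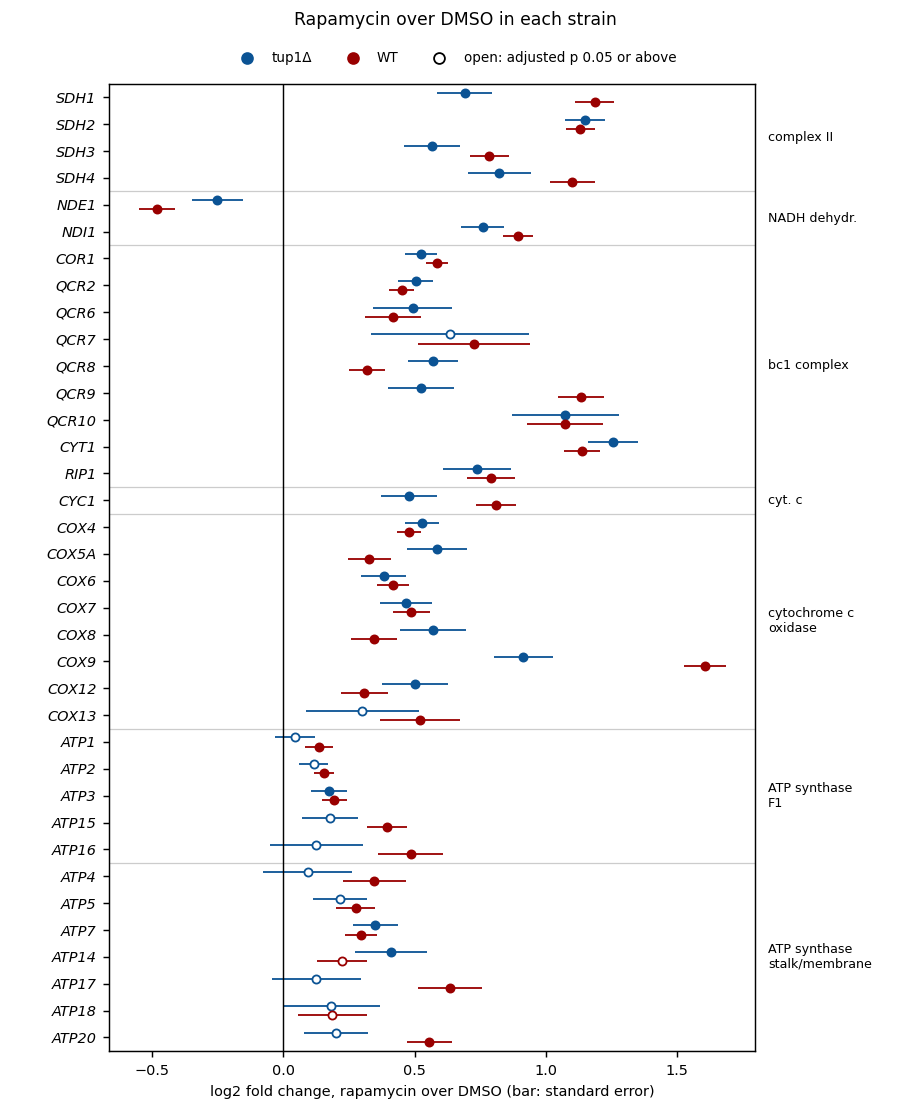
Log2 fold change of rapamycin over DMSO for the 36 genes by complex, in *tup1Δ* (blue) and WT (dark red), with the standard error from limma as the bar and open points where the adjusted p is 0.05 or above. *COX9* lies farthest to the right in WT at 1.61, *NDE1* is to the left of 0 in both strains, and most open points are ATP synthase genes in *tup1Δ*.

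In *tup1Δ* the median response to rapamycin of the 36 genes was 0.50 on the log2 scale, against 0.03 over all genes. In that strain 24 genes rose, 1 fell and 11 did not pass, while 29.6% of all genes rose and 23.5% fell. A log2 fold change of at least 1 was reached by 3 genes, *SDH2*, *QCR10* and *CYT1*, and upward by 5.34% of all genes. The genes that rose in both strains numbered 23, which is 95.8% of the 24 in *tup1Δ* and 69.7% of the 33 in WT. The same overlap was not computed over all genes. Over the 36 genes the responses of the strains had a Pearson r of 0.80 and a Spearman rho of 0.71. This is a description over genes that were read on the same arrays, and genes are not independent replicates. The 10 genes that rose in WT and did not pass in *tup1Δ* were *QCR7*, *COX13* and 8 of ATP synthase. How many of all genes did so was not computed. None of these 10 passed the test of the difference between the strains in the fit without a block, while *ATP17* and *ATP20* passed it with the replicate number as a block (limma adjusted p = 0.0470 and 0.0206). With that block, *QCR7*, *COX13* and *ATP20* passed in *tup1Δ* and *ATP3* did not (limma adjusted p = 0.00437, 0.00921, 0.0159 and 0.0619). The block treats same-numbered arrays of a strain as 1 culture. For *tup1Δ* their deviations correlated at only 0.0637, and whether they share a culture is not settled by the sources used here. The median standard error was 0.107 in *tup1Δ*, which had 2 arrays a treatment, against 0.0758 in WT, which had 4. The spread of a gene was estimated over all 4 groups together, so scatter among the WT arrays enters the *tup1Δ* test. With WT replicates 3 and 4 alone, *QCR7*, *COX13*, *ATP2*, *ATP15* and *ATP5* passed in *tup1Δ* at unchanged log2 fold changes. Their limma adjusted p values were 9.46e-06, 0.000494, 0.0415, 0.0108 and 0.0111. The genes that rose in *tup1Δ* then numbered 30, and 26 with WT replicates 1 and 2 alone.

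Without rapamycin, much of the set was higher in *tup1Δ* than in WT. In DMSO 22 of the 36 genes were higher, 0 were lower and 14 did not pass, with a median log2 fold change of 0.33 against -0.08 over all genes. Of all genes, 15.3% were higher and 27.3% lower in *tup1Δ*. No gene of the set reached a log2 fold change of 1, which 4.13% of all genes reached upward. The values of the *tup1Δ* arrays lay above those of the 4 WT arrays for 28 of the 36 genes, and for 22.7% of all genes. The genes that were higher included 4 of 4 of complex II, 2 of 2 NADH dehydrogenases, 5 of 9 of the bc1 complex, 5 of 8 of cytochrome c oxidase and 6 of 12 of ATP synthase. Without *tup1Δ* DMSO replicate 1, 14 genes were higher. The comparisons share arrays, those of rapamycin in WT and of *tup1Δ* over WT in DMSO the WT DMSO arrays among them, and each is given by its own values.

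The largest differences in DMSO were those of *ATP17*, with a log2 fold change of 0.92 ± 0.15 (SE, limma adjusted p = 0.000583), and *SDH1*, with 0.90 ± 0.091 (SE, limma adjusted p = 1.88e-05). *QCR9* was higher by 0.76, *COX7* by 0.72, *ATP16* by 0.64, *RIP1* by 0.55, *SDH4* by 0.54 and *COX13* by 0.52. The call of *COX13* was lost in 6 of 21 other settings (limma adjusted p up to 0.224). Over the 21 settings its log2 fold change ran from 0.30 to 0.74. That of *ATP16*, which passed in each, ran from 0.45 to 0.83. *QCR7* had a log2 fold change of 0.64 that did not pass (limma adjusted p = 0.0683), and it passed with the replicate number as a block (limma adjusted p = 0.0465). *CYC1*, *COX9* and *CYT1*, which rose in rapamycin in WT by 0.81, 1.61 and 1.14, were at 0.07, 0.22 and 0.12 between the strains in DMSO, and none of them passed. *QCR6* and *ATP3* were the 2 genes with a value below 0, -0.02 and -0.02.

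In rapamycin, 20 genes were higher in *tup1Δ*, 2 were lower and 14 did not pass, with a median log2 fold change of 0.28 against -0.09 over all genes. Of all genes, 16.2% were higher and 27.5% lower, and 4.52% were higher by at least 1 on the log2 scale, which no gene of the set was. The largest differences were those of *QCR8*, 0.70 ± 0.083 (SE, limma adjusted p = 5.97e-05), and *ATP14*, 0.70 ± 0.12 (SE, limma adjusted p = 0.000822), followed by *COX7* at 0.70 and *NDE1* at 0.68. The 2 genes that were lower were *COX9*, with -0.47 ± 0.098 (SE, limma adjusted p = 0.00283), and *CYC1*, with -0.26 ± 0.093 (SE, limma adjusted p = 0.0419). *CYC1* lost the threshold in 12 of 21 other settings, the replicate number as a block among them (limma adjusted p = 0.0685). In both treatments 17 genes were higher in *tup1Δ*, namely *SDH1*, *SDH2*, *SDH3*, *NDE1*, *NDI1*, *COR1*, *QCR2*, *QCR8*, *RIP1*, *COX4*, *COX5A*, *COX6*, *COX7*, *ATP2*, *ATP14*, *ATP15* and *ATP17*. Of these calls, that of *COX4* in DMSO was lost in 15 of 21 other settings and that of *ATP17* in rapamycin in 8 of 21. The share of all genes that were higher in both treatments was not computed. The count of genes higher in rapamycin was 8 without *tup1Δ* rapamycin replicate 1, 12 without replicate 2, and 13 in a fit of these 2 groups alone.

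**Figure D3:**
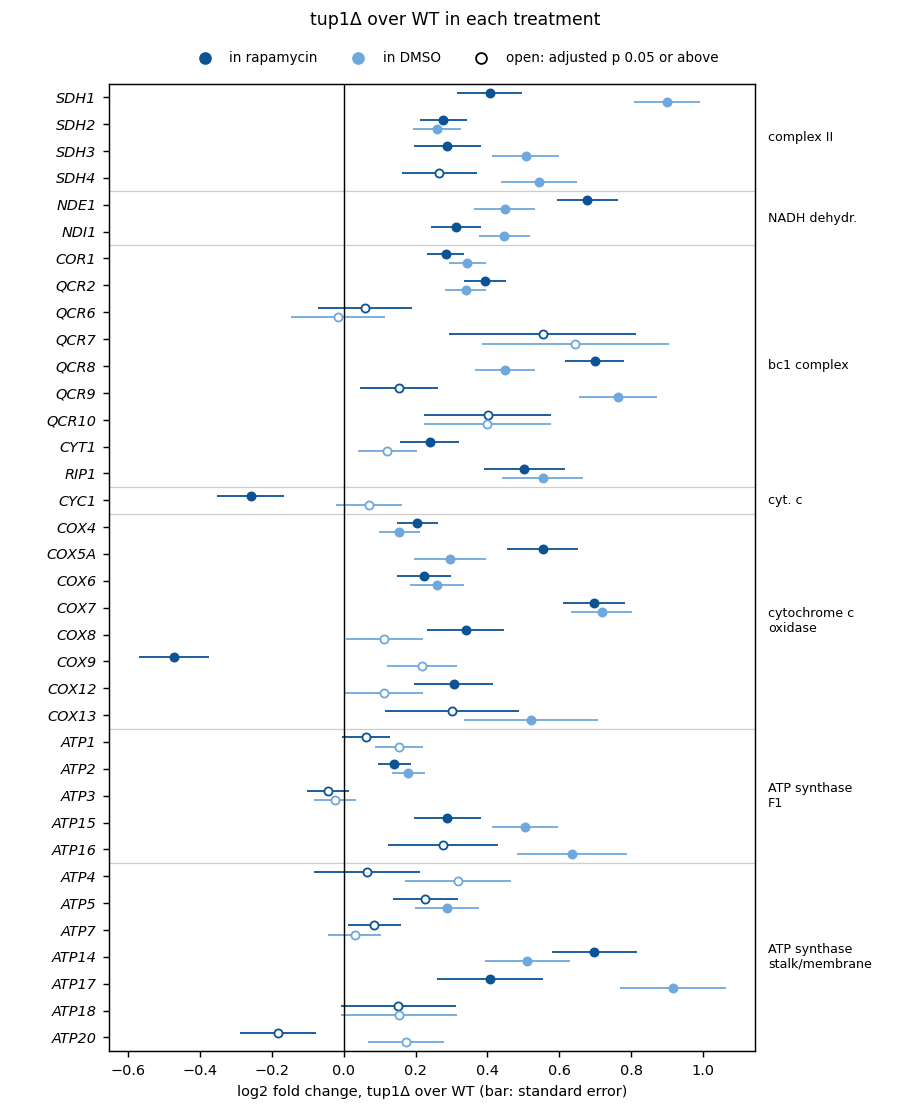
Log2 fold change of *tup1Δ* over WT for the 36 genes by complex, in rapamycin (dark blue) and in DMSO (light blue), with the standard error from limma as the bar and open points where the adjusted p is 0.05 or above. Most points lie right of 0, and *COX9* and *CYC1* in rapamycin are the filled points left of 0.

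The response to rapamycin itself differed between the strains for 3 of the 36 genes, all with a smaller rise in *tup1Δ*, and 0 genes had a larger rise. Of all genes, 3.48% had a higher and 2.29% a lower response in *tup1Δ*. The difference of the log2 fold changes, *tup1Δ* minus WT, was -0.69 ± 0.14 (SE, limma adjusted p = 0.0132) for *COX9*, -0.61 ± 0.15 (SE, limma adjusted p = 0.0453) for *QCR9* and -0.49 ± 0.13 (SE, limma adjusted p = 0.0488) for *SDH1*. The 3 genes had different levels behind this. *COX9* was lower in *tup1Δ* in rapamycin (-0.47), with a DMSO difference of 0.22 that did not pass. *QCR9* was higher in *tup1Δ* in DMSO (0.76), with a rapamycin difference of 0.15 that did not pass. *SDH1* was higher in *tup1Δ* in both treatments, by 0.41 in rapamycin and 0.90 in DMSO. The plot of 6 genes by array shows these levels.

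*COX9* alone passed when the arrays were centred on their medians or on the median gene. The calls also depended on single arrays. The count was 0 without *tup1Δ* DMSO replicate 1, *tup1Δ* DMSO replicate 2 or *tup1Δ* rapamycin replicate 2, it was 1 without *tup1Δ* rapamycin replicate 1, WT DMSO replicates 1, 2 or 3, or WT rapamycin replicate 3, and it was 5 without WT rapamycin replicate 2, with *SDH4* and *CYC1* added. The 1 gene was *SDH1* without *tup1Δ* rapamycin replicate 1 and *COX9* in the other cases. With the replicate number as a block it was also 5, with *ATP17* (limma adjusted p = 0.0470) and *ATP20* (limma adjusted p = 0.0206) added. Against WT replicates 3 and 4 alone, 10 genes had a lower and 3 a higher response in *tup1Δ*, with *SDH3*, *SDH4*, *CYC1*, *COX13*, *ATP15*, *ATP4* and *ATP17* added to the lower and *NDE1*, *QCR8* and *ATP14* as the higher. Against WT replicates 1 and 2 alone, 3 genes were lower and 0 higher. The adjusted p of *COX9* ran from 2.58e-05 to 0.0762 over 20 other settings, that of *QCR9* from 0.00014 to 0.199 and that of *SDH1* from 0.0223 to 0.233.

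**Figure D4:**
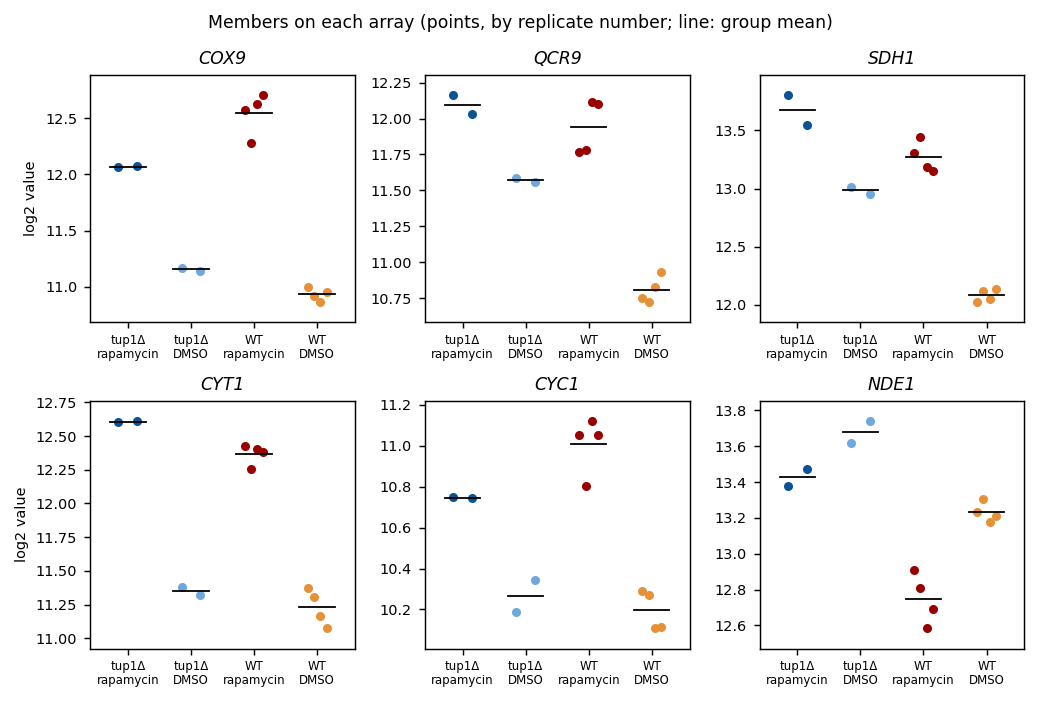
Log2 values on each array for *COX9*, *QCR9*, *SDH1*, *CYT1*, *CYC1* and *NDE1*, with 1 point per array, a line at the group mean and the groups from *tup1Δ* with rapamycin to WT with DMSO, on an axis that does not start at 0. *COX9* and *CYC1* are highest in WT with rapamycin, *SDH1* and *CYT1* are highest in *tup1Δ* with rapamycin, and *NDE1* is highest in *tup1Δ* with DMSO.

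Of the genes of the 5 Hap regulators, 2 rose and 1 fell in rapamycin in WT, a count near the background of 37.8% and 28.4% of all genes. *HAP4* (YKL109W), the activating and glucose-regulated subunit of the Hap2/3/4/5 complex, read 11.75 and 11.77 in *tup1Δ* with rapamycin, against 12.03 and 11.94 in *tup1Δ* with DMSO. WT gave 10.37, 10.53, 10.28 and 10.19 with rapamycin, against 11.04, 10.97, 11.29 and 11.32 with DMSO. Its log2 fold change in *tup1Δ* was -0.22, which did not pass. It fell by 0.81 in WT in rapamycin (SE 0.093, limma adjusted p = 1.3e-05), where 33 of the 36 genes rose. Hap4 protein was not measured, and a link between *HAP4* and the 36 genes was not tested. *HAP4* was higher in *tup1Δ* by 1.42 in rapamycin and 0.83 in DMSO. The difference of the responses was 0.59 ± 0.16 (SE, limma adjusted p = 0.0603). *HAP5* (YOR358W), a DNA-binding subunit, read 11.42 and 11.57 in *tup1Δ* with rapamycin, against 10.49 and 10.43 in *tup1Δ* with DMSO. In WT the values were 11.77, 11.66, 11.75 and 11.72 with rapamycin, against 10.82, 10.75, 10.59 and 10.57 with DMSO, and the gene rose by 1.04 in *tup1Δ* and 1.04 in WT. In *tup1Δ* over WT *HAP5* was at -0.23 in rapamycin and -0.23 in DMSO, and both passed. The rapamycin call was lost in 6 of 21 other settings (limma adjusted p up to 0.269). The DMSO call of *HAP5* was lost in 11 of 21, the replicate number as a block among them (limma adjusted p = 0.0522). *HAP2* (YGL237C), another DNA-binding subunit, read 10.54 and 10.74 in *tup1Δ* with rapamycin, against 9.87 and 9.94 in *tup1Δ* with DMSO. In WT its values were 10.70, 10.59, 10.66 and 10.66 with rapamycin, against 10.36, 10.34, 10.40 and 10.30 with DMSO. It rose by 0.74 in *tup1Δ* and 0.30 in WT, and the difference of the responses was 0.44 ± 0.090 (SE, limma adjusted p = 0.0151). *HAP2* was lower in *tup1Δ* in DMSO, at -0.44, a call kept in each of 21 other settings. The means there were 9.91 in *tup1Δ* and 10.35 in WT. With rapamycin the means were 10.64 and 10.65, and the strains did not pass. *HAP3* (YBL021C), the remaining DNA-binding subunit, and *HAP1* (YLR256W), the heme-responsive activator of *CYC1*, passed in none of the comparisons. *HAP3* read 9.33 to 9.47 in *tup1Δ* and 9.44 to 9.83 in WT. *HAP1* read 12.61 to 12.82 in *tup1Δ* and 12.66 to 13.14 in WT. BY4741 belongs to a strain family whose *HAP1* is interrupted by a Ty element.

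Of the 6 second isoforms and paralogs of the set, 5 rose in rapamycin in *tup1Δ* and 5 in WT, while 29.6% and 37.8% of all genes did. In *tup1Δ* 3 were higher and 1 lower than in WT in rapamycin (16.2% and 27.5% of all genes), and 2 were higher and 1 lower in DMSO (15.3% and 27.3% of all genes). *CYC7* (YEL039C), the cytochrome c of low-oxygen cells, read 11.69 and 11.73 in *tup1Δ* with rapamycin, against 10.11 and 9.89 in *tup1Δ* with DMSO. The WT arrays gave 8.97, 8.88, 9.04 and 8.98 with rapamycin, against 8.28, 8.27, 8.26 and 8.28 with DMSO. The WT DMSO values were only a little above the level of the deleted marker genes, and the part of this in its fold changes was not tested. *CYC7* was higher in *tup1Δ* by 2.74 ± 0.065 (SE, limma adjusted p = 6.85e-11) in rapamycin and by 1.73 in DMSO, where *CYC1* was at -0.26 and 0.07. *NDE2* (YDL085W), the second external NADH dehydrogenase, read 12.60 and 12.78 in *tup1Δ* with rapamycin, against 9.69 and 9.76 in *tup1Δ* with DMSO. WT arrays read 10.59, 10.43, 11.04 and 11.10 with rapamycin, against 8.95, 9.02, 9.11 and 9.13 with DMSO. It rose by 2.96 in *tup1Δ* and 1.74 in WT, while *NDE1* fell in both strains. *SDH9* (YJL045W), a paralog of *SDH1*, read 11.39 and 11.61 in *tup1Δ* with rapamycin, against 8.93 and 9.16 in *tup1Δ* with DMSO. In WT it read 9.00, 9.04, 9.37 and 9.37 with rapamycin, against 8.86, 8.98, 8.96 and 8.99 with DMSO. Only the *tup1Δ* rapamycin arrays stood far above the rest, with a response of 2.46 ± 0.14 (SE, limma adjusted p = 1e-07) in *tup1Δ* and 0.25 in WT, where the call was lost in 10 of 20 other settings. The responses of *SDH9*, *NDE2* and *CYC7* were larger in *tup1Δ*, by 2.21 ± 0.17 (SE, limma adjusted p = 1.82e-05), 1.22 ± 0.23 (SE, limma adjusted p = 0.00983) and 1.02 ± 0.092 (SE, limma adjusted p = 5.83e-05).

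*COX5B* (YIL111W), the low-oxygen form of subunit V, read 11.37 and 11.57 in *tup1Δ* with rapamycin, against 9.80 and 9.66 in *tup1Δ* with DMSO. The WT values were 11.26, 11.14, 11.56 and 11.48 with rapamycin, against 9.85, 9.72, 9.57 and 9.58 with DMSO. It rose in both strains, by 1.74 in *tup1Δ* and 1.68 in WT, and the strains did not pass the test in either treatment (0.11 in rapamycin and 0.05 in DMSO). *SHH4* (YLR164W), a paralog of *SDH4*, read 11.42 and 11.44 in *tup1Δ* with rapamycin, against 9.36 and 9.42 in *tup1Δ* with DMSO. WT gave 11.68, 11.51, 12.03 and 12.07 with rapamycin, against 10.05, 9.90, 9.79 and 9.82 with DMSO. It was the 1 paralog that was lower in *tup1Δ*, at -0.39 in rapamycin, where the call was lost in 14 of 21 other settings, and -0.50 in DMSO. It rose by 2.04 in *tup1Δ* and 1.93 in WT. *SHH3* (YMR118C), a paralog of *SDH3*, passed in none of the comparisons. Its log2 fold changes in rapamycin were 0.24 in *tup1Δ* and 0.14 in WT.

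Of the 5 other ATP synthase proteins, *INH1* (YDL181W), the inhibitor of ATP hydrolysis by F1, changed most between the strains. It read 12.77 and 12.86 in *tup1Δ* with rapamycin, against 12.15 and 12.09 in *tup1Δ* with DMSO. In WT the values were 12.20, 11.87, 12.07 and 11.94 with rapamycin, against 10.46, 10.42, 10.36 and 10.39 with DMSO. The *tup1Δ* DMSO values lay within the range of WT with rapamycin. *INH1* was higher in *tup1Δ* by 0.80 in rapamycin and 1.71 ± 0.082 (SE, limma adjusted p = 3.32e-08) in DMSO, and its response to rapamycin was 0.70 in *tup1Δ* and 1.61 in WT, a difference of -0.92 ± 0.12 (SE, limma adjusted p = 0.000807). *STF1* (YDL130W-A), a protein related to *INH1*, read 12.20 and 12.26 in *tup1Δ* with rapamycin, against 10.69 and 10.63 in *tup1Δ* with DMSO. In WT its values were 11.57, 12.09, 12.38 and 12.28 with rapamycin, against 9.88, 10.10, 10.05 and 10.06 with DMSO, and the gene rose by 1.57 in *tup1Δ* and 2.06 in WT. *STF2* (YGR008C), also linked to the inhibitor, read 12.71 and 12.90 in *tup1Δ* with rapamycin, against 11.56 and 11.36 in *tup1Δ* with DMSO. The WT arrays gave 12.41, 12.11, 12.34 and 12.32 with rapamycin, against 11.31, 11.32, 11.29 and 11.25 with DMSO, and the gene rose by 1.35 in *tup1Δ* and 1.01 in WT. Of the small membrane subunits, *TIM11* (YDR322C-A), subunit e, rose by 0.38 in *tup1Δ* and 0.65 in WT, and *ATP19* (YOL077W-A), subunit k, passed in none of the comparisons.

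Assembly factors, which build the complexes without staying in them, were followed for 34 of the 35 genes listed, and *SDH6* had no value here. In *tup1Δ* 22 of the 34 rose in rapamycin and 0 fell, where 29.6% of all genes rose and 23.5% fell. In WT 31 rose and 2 fell, where 37.8% of all genes rose and 28.4% fell. In *tup1Δ* over WT in rapamycin, 3 (8.82%) were higher and 17 (50.0%) lower, against 16.2% and 27.5% of all genes, with a median log2 fold change of -0.25 against -0.09 over all genes. In DMSO 5 (14.7%) were higher and 10 (29.4%) lower, which is near the 15.3% and 27.3% of all genes, with a median of -0.12 against -0.08 over all genes. *COX19* (YLL018C-A), a copper-linked assembly factor of cytochrome c oxidase, read 12.16 and 12.09 in *tup1Δ* with rapamycin, against 12.31 and 12.29 in *tup1Δ* with DMSO. WT arrays read 10.62, 10.58, 11.01 and 10.88 with rapamycin, against 11.94, 11.83, 11.99 and 12.08 with DMSO. Its log2 fold change in *tup1Δ* was -0.18, which did not pass, it fell by 1.19 in WT, and the difference of the responses was 1.01 ± 0.16 (SE, limma adjusted p = 0.00342). *CBP4* (YGR174C), needed to assemble cytochrome b, read 11.70 and 11.83 in *tup1Δ* with rapamycin, against 10.35 and 10.21 in *tup1Δ* with DMSO. In WT it read 11.46, 11.53, 11.74 and 11.70 with rapamycin, against 10.33, 10.29, 10.39 and 10.32 with DMSO, and the gene rose by 1.48 in *tup1Δ* and 1.28 in WT. *SDH5* (YOL071W), which attaches the flavin to Sdh1, read 10.87 and 10.83 in *tup1Δ* with rapamycin, against 10.00 and 9.84 in *tup1Δ* with DMSO. The WT values were 11.03, 11.32, 11.19 and 11.29 with rapamycin, against 10.07, 9.86, 10.08 and 10.03 with DMSO, and the gene rose by 0.93 in *tup1Δ* and 1.20 in WT. The assembly factors *COX20* (YDR231C) and *COX16* (YJL003W) of cytochrome c oxidase completed the genes that reached a log2 fold change of 1. *COX20* read 11.30 and 11.38 in *tup1Δ* with rapamycin, against 10.22 and 10.23 in *tup1Δ* with DMSO. WT gave 10.99, 10.94, 11.40 and 11.34 with rapamycin, against 9.93, 9.75, 10.19 and 10.14 with DMSO, and the gene rose by 1.11 in *tup1Δ* and 1.17 in WT. *COX16* read 9.79 and 9.81 in *tup1Δ* with rapamycin, against 8.73 and 8.82 in *tup1Δ* with DMSO. In WT the values were 9.89, 9.70, 10.05 and 9.97 with rapamycin, against 9.06, 9.05, 9.04 and 8.97 with DMSO, and the gene rose by 1.03 in *tup1Δ* and 0.87 in WT. All 7 assembly factors of ATP synthase had values below 0 in *tup1Δ* over WT in both treatments, and 5 of them passed in rapamycin and 4 in DMSO. Of all genes, 27.5% passed as lower in rapamycin and 27.3% in DMSO, and 2125 and 2211 of the 5769 had values above 0. *ATP23* (YNR020C), a processing peptidase and chaperone of the enzyme, was the farthest, at -0.90 ± 0.10 (SE, limma adjusted p = 4.39e-05) in rapamycin and -0.84 ± 0.10 (SE, limma adjusted p = 7.7e-05) in DMSO.

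**Figure D5:**
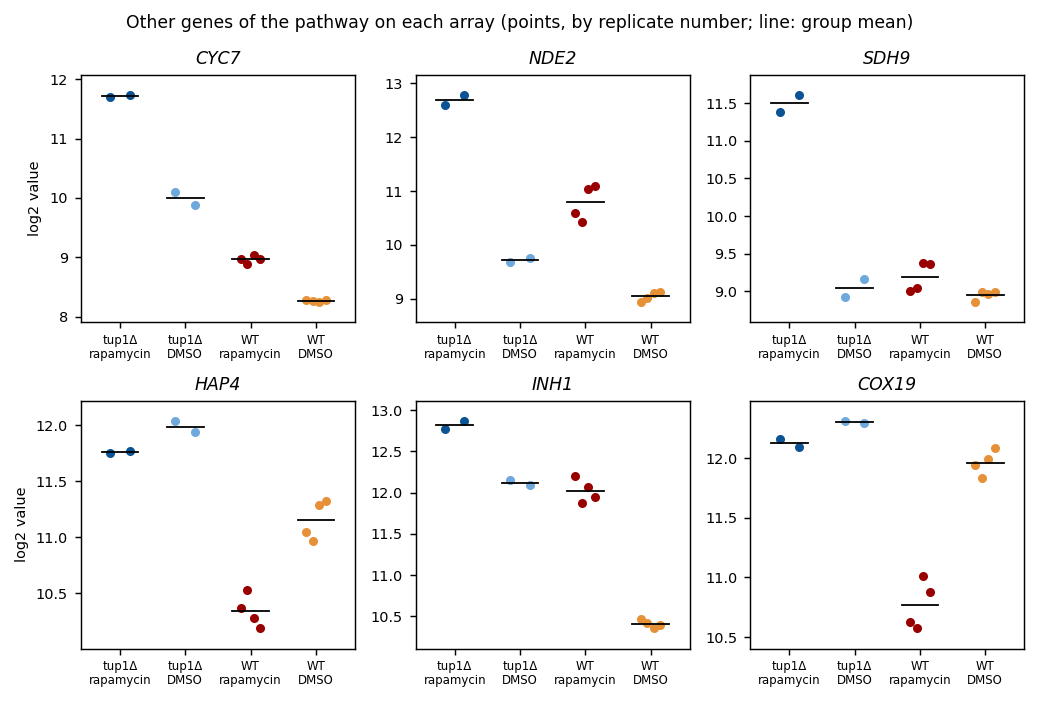
Log2 values on each array for *CYC7*, *NDE2*, *SDH9*, *HAP4*, *INH1* and *COX19*, genes of the same pathway outside the 36, with 1 point per array, a line at the group mean and the groups from *tup1Δ* with rapamycin to WT with DMSO, on an axis that does not start at 0. *CYC7*, *NDE2* and *SDH9* are highest in *tup1Δ* with rapamycin, and *HAP4* and *COX19* are lowest in WT with rapamycin.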

How the data were processed

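RNA was extracted with hot phenol, copied to double-stranded cDNA, labeled with Cy3 and hybridized to 12 one-color NimbleGen arrays. The authors scanned the arrays, quantified them with NimbleScan, normalized them by RMA (background subtraction, equal distributions, 1 summary per gene) together with other arrays of their laboratory, and deposited log2 values. These values were used as deposited, with no further normalization. They hold no detection or saturation flag. Of 5872 entries, 103 were empty on every array and 0 on only some, which left 5769 genes. The R64 table of RefSeq named 5763 of them, and its coordinates were not used because the build behind the array is not given in the sources used here. No sequence was used here, and a planned search for promoter motifs was not run.

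All 12 arrays were fitted in R 4.3.3 with limma 3.58.1 (lmFit, eBayes), with 1 mean for each of 4 groups, 8 residual and 2.8 prior degrees of freedom. The study's methods name limma for *tup1Δ* against WT. The Benjamini-Hochberg adjustment ran over 5769 genes, separately in each of 5 comparisons. A gene passed at an adjusted p under 0.05, and the text also counts those with a log2 fold change of 1 or more in size. The code was tested on simulated data. The genes, lists and tests were chosen with earlier results of these data known. Every gene of the set is named. Values on every array are given for those that reached a log2 fold change of 1, for the 2 largest rises and falls of each comparison, for the largest change of each complex in WT in rapamycin and, outside the set, for Hap regulators, paralogs and genes that reached 1, and a few further genes were added where a result turned on them.

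Same-numbered WT arrays share a culture, per the study's design text, and their deviations from the group means correlated at 0.745, 0.119, 0.531 and 0.535 for replicates 1 to 4. For *tup1Δ* the correlation was 0.0637, and whether same-numbered arrays share a culture is not settled. Results were recomputed with renewed quantile normalization, 2 kinds of centring, without the dimmest 25% of genes, with the compared groups only, an intensity trend and robust prior, a fold threshold, a replicate block, either pair of WT replicates, and each array left out.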

Additional observations from a re-analysis of the deposited data

Results flagged for a closer look

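In 4 groups of 4 arrays, 1 array stood far from the other 3, measured as its gap to the nearest array over the whole range of the group. *SDH3*, *SDH4* and *COX6* were low on WT rapamycin replicate 2, with gaps of 0.843, 0.868 and 0.896 of the range. The values there were 11.92, 12.40 and 13.05, against 12.23 to 12.29, 12.78 to 12.84 and 13.29 to 13.31 on the other 3 arrays. *COX8* was high on WT DMSO replicate 1, with a gap of 0.887 of the range, at 10.69 against 10.43 to 10.46. Chance flags about 1 in 20 groups, which is 5.6 of the 112 groups examined here.

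The response to rapamycin differed between *tup1Δ* and WT, by the limma test of the difference itself, for 9 of the 89 genes of the set and the other lists. Of all genes, 3.48% had a higher and 2.29% a lower response in *tup1Δ*. The differences on the log2 scale, *tup1Δ* minus WT, were -0.494 for *SDH1*, -0.61 for *QCR9* and -0.691 for *COX9* within the set. Outside it they were 0.438 for *HAP2*, 1.02 for *CYC7*, 1.22 for *NDE2*, 2.21 for *SDH9*, -0.916 for *INH1* and 1.01 for *COX19*. *CYC7*, *SDH9*, *INH1* and *COX19* stayed past the threshold in each alternative that tested them (*CYC7* and *SDH9* were not tested without the dimmest 25% of genes), and *HAP2* and *NDE2* lost it in 2 of 20 each.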

How the results depend on the processing

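The limits of these data are the 2 arrays in each *tup1Δ* group, the WT arrays that fell into pairs, and the absence of a detection flag. The median log2 fold changes of the 36 genes were recomputed with renewed quantile normalization, centring on the median gene, and each array left out. In each of these fits they moved by less than the median standard error of the 36 genes in that comparison. That is an error of single genes and not of a median. Leaving out an array outside a comparison cannot move its median. The median difference of the responses, *tup1Δ* minus WT, was -0.046 and ran from -0.079 to -0.023. In the other settings the medians were not recomputed. The counts of genes that rose in rapamycin in WT or *tup1Δ* stayed within 1.5 times under each setting other than the fold threshold. Outside the counts, results of single genes were counted once for each comparison and setting, so that 1 gene enters many times. Of these, 5415 kept their side of the threshold, 240 lost it, 118 gained it and 1 reversed. Results that passed in neither the main fit nor the setting are among the 5415.

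With a fold threshold of 1 on the log2 scale, 3 genes were higher and 0 lower in rapamycin in *tup1Δ*, 7 were higher and 0 lower in WT, 0 higher or lower between the strains in either treatment, and 0 differed in response. Between the strains in rapamycin, the compared groups alone gave 13 genes higher and 1 lower. There, 1 gene was lower, *COX9*, in place of 2 after renewed quantile normalization, either centring, the intensity trend with a robust prior, the replicate block, or WT replicates 1 and 2 alone. For the responses, 1 gene, *COX9*, was lower in *tup1Δ* in place of 3 with either centring or without the dimmest 25% of genes. With the replicate block 5 were lower. Against WT replicates 3 and 4 alone, 10 were lower and 3 higher, 1 gene (*QCR6*) was lower in *tup1Δ* in DMSO, and the difference of the responses of *SHH4*, *tup1Δ* minus WT, was -0.21 (limma adjusted p = 0.0340), against 0.11 over all arrays, which did not pass. The causes were not tested. Over the fits that each left out 1 array, 0 to 1 genes fell in rapamycin in *tup1Δ*, the genes higher in *tup1Δ* numbered 8 to 20 in rapamycin and 14 to 23 in DMSO, those lower in rapamycin 1 to 2, and those with a lower response 0 to 5. The replicate block changed no other count by over 1.5 times. In single genes it added *QCR7*, *COX13* and *ATP20* in *tup1Δ*, *ATP14* in WT and *QCR7* between the strains in DMSO, and it lost *ATP3* in *tup1Δ* (limma adjusted p = 0.0619), *CYC1* and *SHH4* between the strains in rapamycin, and *HAP5* between them in DMSO.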

Other observations

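The mitochondrial ADP/ATP carriers, which exchange the product of ATP synthase for cytosolic ADP, moved in different directions. *AAC3* (YBR085W), the carrier of cells short of oxygen, read 12.11 and 11.87 in *tup1Δ* with rapamycin, against 12.52 and 12.45 in *tup1Δ* with DMSO. In WT it read 11.22, 10.94, 10.79 and 10.72 with rapamycin, against 11.73, 11.83, 11.76 and 11.61 with DMSO. It fell by 0.49 in *tup1Δ* and by 0.82 in WT, and it was higher in *tup1Δ* than in WT by 1.07 ± 0.13 (SE, limma adjusted p = 5.67e-05) in rapamycin and by 0.75 in DMSO on the log2 scale. *AAC1* (YMR056C), a minor carrier, rose by 0.45 in *tup1Δ* and 0.23 in WT. *PET9* (YBL030C), the main carrier of aerobic cells, had a log2 fold change of 0.06 in *tup1Δ*, which did not pass, and rose by 0.20 in WT.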
